A study of Mus musculus with 6 samples.

Results

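The genes described here are 10 classic markers of macrophages exposed to interleukin-4 (IL-4), namely Arg1, Retnla, Chil3, Mrc1, Ccl24, Ccl17, Ccl22, Egr2, Alox15 and Mgl2. They were chosen by name, for their known response to IL-4, and the rule itself uses no measured value, although earlier results of these data were known when the genes were chosen. All 10 were found among the 55421 gene identifiers counted, and 8 of them were among the 13849 genes with enough counts for a test. RNA was sequenced from splenic monocytes, with 3 libraries from IL-4Rα+/+ mice, 3 from IL-4Rα-/- mice and 1 mouse per library. All mice were C57BL/6 animals of 8 to 16 weeks, and the labels name no treatment. The IL-4Rα-/- mice carried the knockout of the IL-4 receptor alpha chain in every cell and not only in monocytes, and the controls were their littermates. The cells were obtained untouched, by removing other spleen cells with antibodies, so that cells escaping removal could remain in a library. The comparison asks whether monocytes of untreated mice differ in these IL-4 target genes when the receptor chain is absent.

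IL-4 binds the IL-4 receptor alpha chain, which pairs with the common gamma chain, encoded by Il2rg, or with the chain encoded by Il13ra1, through which IL-13 also signals. The associated Janus kinases then activate the transcription factor STAT6, which enters the nucleus and binds paired TTC and GAA letters. In tissue macrophages this programme raises enzymes, lectins and chemokines known as alternative activation genes, whereas monocytes are the circulating and splenic precursors of such macrophages. Several of the same genes are also known from other cells, such as Mrc1 in resident macrophages, Alox15 in eosinophils and Chil3 in monocytes and neutrophil precursors.

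The upstream sequences of the members with such paired letters are shown first, since these letters are the kind of site that STAT6 binds. The letters searched were TTCNNNGAA and TTCNNNNGAA, which read the same on both strands, in the 250 bases before each RefSeq start of transcription in GRCm38.p6. RefSeq entries were matched by symbol for 7 of the 10 members. The letters were found upstream of Retnla, Chil3 and Ccl17 and in none of the windows of Mrc1, Ccl22, Egr2 and Mgl2. Of all 32851 RefSeq windows, 7.02% held the form with 3 free bases, 5.85% the form with 4 and 12.4% either, so that a match is common and describes letters, not a bound site. Each sequence below runs 5′ to 3′ on the strand of its gene, up to the first base of the annotated gene, with the paired letters and the bases between them in capitals. They lie at chr16:48842359-48842550 (plus strand) for Retnla, chr3:106167565-106167814 (minus strand) for Chil3 and chr8:94810203-94810452 (plus strand) for Ccl17.
Retnla: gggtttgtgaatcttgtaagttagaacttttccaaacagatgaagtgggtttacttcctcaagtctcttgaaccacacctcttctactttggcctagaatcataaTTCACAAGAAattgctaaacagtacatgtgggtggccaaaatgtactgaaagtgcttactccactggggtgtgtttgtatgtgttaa
Chil3: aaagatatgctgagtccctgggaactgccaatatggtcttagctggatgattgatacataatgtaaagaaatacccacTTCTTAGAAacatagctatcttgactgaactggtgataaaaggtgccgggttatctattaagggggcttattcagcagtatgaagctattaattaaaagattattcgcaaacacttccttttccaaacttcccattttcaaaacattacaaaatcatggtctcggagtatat
Ccl17: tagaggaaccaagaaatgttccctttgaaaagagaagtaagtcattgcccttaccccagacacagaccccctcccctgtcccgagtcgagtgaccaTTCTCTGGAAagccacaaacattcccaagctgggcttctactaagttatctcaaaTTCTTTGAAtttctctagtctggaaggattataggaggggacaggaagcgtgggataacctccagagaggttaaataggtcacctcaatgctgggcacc
Retnla held the form with 4 free bases, from -145 to -136 relative to the RefSeq start, and Chil3 the form with 3, from -172 to -164. Ccl17 held both forms. As the values below show, these 3 genes stood at opposite ends of the expression range, with Chil3 the highest of all members and Retnla and Ccl17 near the limit of detection.

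The libraries held 26807281 to 29033297 counts on genes, and levels are given as counts or as CPM, the counts rescaled to a common library size with TMM factors. The targeted gene, Il4ra (ENSMUSG00000030748.9, chromosome 7, 125552120 to 125579474, plus strand), had 3903, 3550 and 4686 counts in IL-4Rα+/+ mice and 781, 2268 and 940 in IL-4Rα-/- mice. Transcripts of the gene were thus still counted in all 3 IL-4Rα-/- libraries, although the genotypes did not overlap. The log2 fold change, given throughout as IL-4Rα-/- over IL-4Rα+/+, was -1.67 (SE 0.41), with an adjusted p of 0.618 by edgeR and 0.0111 by DESeq2. Il4ra shares 571 exon bases with an antisense gene, and the strand setting of the counting is not named. Csf1r, the receptor gene that defines monocytes and macrophages, stood at 2777 ± 336 CPM in IL-4Rα+/+ and 2488 ± 316 CPM in IL-4Rα-/- mice (SD, n = 3 each). In IL-4Rα-/- replicate 2 the 12 pancreatic enzyme genes summed to 334 CPM against 10.5 to 50.1 in the other libraries. This library also had the highest sum of genes of neutrophils and their precursors.

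The splenic monocyte libraries of both genotypes held 2 of the 10 genes at high levels, Chil3 and Mrc1, and Arg1 not beyond a few reads. Which cells of a library these transcripts came from was not tested. Compared per length, as RPKM (CPM divided by the exon length in kilobases) averaged over all 6 libraries, the order was Chil3 (567), Mrc1 (37.4), Ccl22 (6.07), Alox15 (2.64), Ccl24 (2.09), Mgl2 (2.01), Egr2 (1.43), Retnla (0.589), Ccl17 (0.406) and Arg1 (0.0267). The ranges over the libraries were apart between Chil3 and Mrc1, between Mrc1 and Ccl22 and between Ccl17 and Arg1. All other neighbours in this order overlapped. Chil3 lay above 99.8% and Mrc1 above 94.4% of the 25716 genes detected in any library, whereas Arg1 lay above 22.4% of them.

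**Figure D1:**
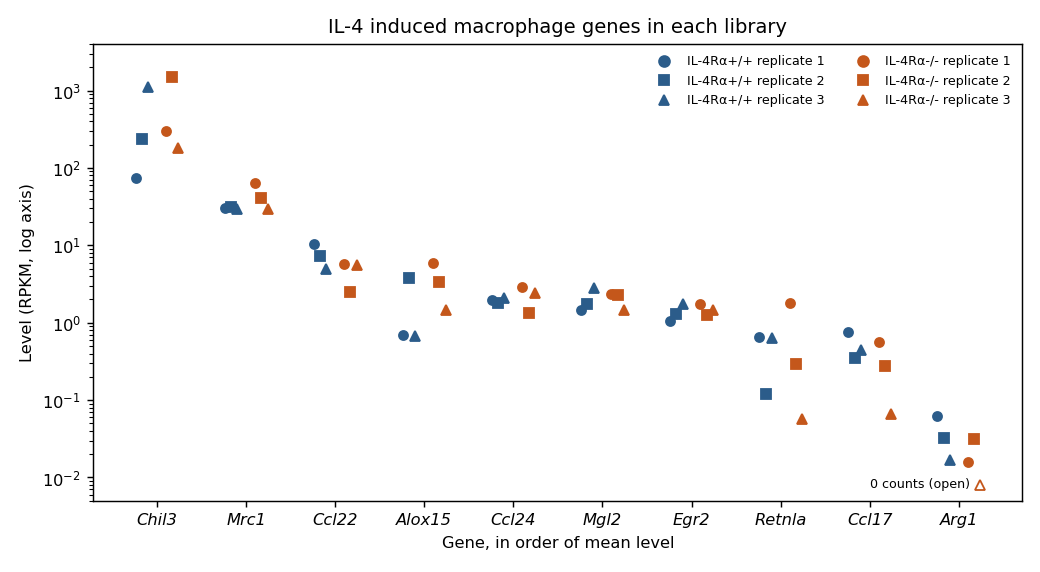
Level of each of the 10 genes in each library, as RPKM on a log axis, with genes in order of mean level, IL-4Rα+/+ libraries in blue, IL-4Rα-/- libraries in orange, a symbol shape per replicate number and an open symbol for 0 counts. Chil3 spans 74.3 to 1491 RPKM, and the genotypes overlap for each of the 10 genes.

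No gene of the group was called as different between the genotypes, by edgeR or by DESeq2. EdgeR called 0 of all genes tested, Il4ra included, so its count for the group was given in advance. Of the 8 members tested, 7 had a higher and 1 a lower mean level in IL-4Rα-/- mice, and 0 were called at the threshold of 0.15 for the adjusted p of edgeR, against 0% of all genes tested. At an unadjusted p under 0.05, 0 of the 8 passed against 8.09% of all genes. The CPM of the genotypes were apart for 0 of the 8 against 15.5% of all genes. DESeq2 also called 0 members, against 0.571% of the genes it adjusted, and gave an unadjusted p under 0.05 for 1 of them, Mrc1. In the edgeR fit of the filtered genes, the 95% confidence interval of each member included 0. The median log2 fold change of the 8 members was 0.32, compared to 0.01 over all genes tested. Without IL-4Rα-/- replicate 1 this median was -0.04, and with a score of red pulp macrophage genes as a covariate, described below, it was -0.29. Loss of the receptor chain was not accompanied by a detectable fall of the group, and the precision differed between members. For Egr2, Ccl24 and Mgl2 the 95% confidence interval of the fold change ran from 0.723 to 1.62, 0.677 to 1.93 and 0.597 to 1.71, respectively, inside a 2-fold change in either direction. For Chil3 and Retnla it ran from 0.216 to 8.74 and 0.246 to 9.30, which leaves several-fold differences undetectable with 3 mice per genotype.

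Genes are given with their identifier and GRCm38 position. Among the enzymes and secreted effector proteins, Arg1 (ENSMUSG00000019987.9, chromosome 10, 24915221 to 24927484, minus strand), the arginase that competes with nitric oxide synthase for arginine, had 4, 2 and 1 counts in IL-4Rα+/+ mice and 1, 2 and 0 in IL-4Rα-/- mice. It was at or near the limit of 3 counts below which a gene was taken as not seen, so neither genotype can be ranked for this gene. This common marker of alternative activation was thus barely detected even in splenic monocytes with an intact receptor. Retnla (ENSMUSG00000061100.5, chromosome 16, 48842551 to 48844461, plus strand), which encodes the secreted protein RELMα, had 11, 2 and 10 counts in IL-4Rα+/+ mice and 30, 5 and 1 in IL-4Rα-/- mice. Both the highest and the lowest count came from IL-4Rα-/- mice. Its log2 fold change was 0.60 (SE 1.10, adjusted p = 0.862 by edgeR), and without IL-4Rα-/- replicate 1 it was -1.39.

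Chil3 (ENSMUSG00000040809.10, chromosome 3, 106147554 to 106167564, minus strand) encodes Ym1, a secreted chitinase-like lectin that is abundant in Ly6C high monocytes as well as in alternatively activated macrophages. It had 121, 391 and 1827 CPM in IL-4Rα+/+ mice and 487, 2433 and 291 CPM in IL-4Rα-/- mice. The spread within each genotype was larger than the difference between them. Means were 780 ± 917 CPM in IL-4Rα+/+ and 1070 ± 1184 CPM in IL-4Rα-/- mice (SD, n = 3 each), and the log2 fold change was 0.46 (SE 1.12, adjusted p = 0.902 by edgeR). The direction depended on single mice, with -1.003 without IL-4Rα-/- replicate 2, -0.05 without IL-4Rα+/+ replicate 1 and 2.06 without IL-4Rα+/+ replicate 3. Its SD within genotypes, 1.79 on the log2 scale, exceeded that of 99.4% of all genes tested, and the genotype held 4.91% of its variance.

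Alox15 (ENSMUSG00000018924.6, chromosome 11, 70344152 to 70352031, minus strand), the 12/15-lipoxygenase that oxidizes polyunsaturated fatty acids, had 1.69, 9.41 and 1.66 CPM in IL-4Rα+/+ mice and 14.4, 8.16 and 3.62 CPM in IL-4Rα-/- mice. A single IL-4Rα+/+ mouse, replicate 2, lay among the IL-4Rα-/- mice, and the other two lay below them. The log2 fold change was 1.03 (SE 0.80, adjusted p = 0.717 by edgeR), the largest of the 8 members, and it ranged from 0.47 without IL-4Rα-/- replicate 1 to 2.38 without IL-4Rα+/+ replicate 2. Eosinophils are also known to express Alox15, and the 8 eosinophil markers summed to 73.8 to 75.4 CPM in IL-4Rα+/+ and 105 to 163 CPM in IL-4Rα-/- mice. Most of this sum was Ccr3, the eotaxin receptor gene, which was highest in IL-4Rα-/- replicate 1, the library with the most Alox15. Without Ccr3, left out after its values were seen, the sum was 22.6, 8.32 and 6.95 CPM in IL-4Rα+/+ mice and 25.8, 20.6 and 31.9 CPM in IL-4Rα-/- mice, so that the genotypes overlapped and replicate 3 was the highest IL-4Rα-/- library. Epx, the peroxidase that defines eosinophils, had 1.51, 0 and 0.264 CPM in IL-4Rα+/+ mice and 1.39, 2.31 and 2.94 CPM in IL-4Rα-/- mice, with overlap. Its counts were 43, 0 and 7 in IL-4Rα+/+ mice and 39, 66 and 87 in IL-4Rα-/- mice, so it passed the filter only with the latter. Of the 7 markers tested, 6 had a higher mean in IL-4Rα-/- mice, and 3 (Prg2, Ccr3 and Ear1) had an unadjusted p under 0.05, against 8.09% of all genes. Ear1 had 19, 6 and 9 counts in IL-4Rα+/+ mice and 39, 31 and 54 in IL-4Rα-/- mice, and passed the filter only through the latter. DESeq2 called Ear1 alone of the list (adjusted p 0.142 by DESeq2), against 0.571% of the genes it adjusted. EdgeR called 0, as of all genes. The part of eosinophils in the Alox15 level was not tested.

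Among the surface lectins, Mrc1 (ENSMUSG00000026712.3, chromosome 2, 14229392 to 14332057, plus strand) encodes CD206, the mannose receptor that takes up glycoproteins. It had 193, 197 and 189 CPM in IL-4Rα+/+ mice and 403, 260 and 189 CPM in IL-4Rα-/- mice. The IL-4Rα+/+ mice were nearly identical, while 2 of the 3 IL-4Rα-/- mice lay above all of them and the third was level with the lowest. Means were 193 ± 3.88 and 284 ± 109 CPM (SD, n = 3 each), with a log2 fold change of 0.56 (SE 0.26, 95% confidence interval -0.05 to 1.17, adjusted p = 0.618 by edgeR). Without IL-4Rα-/- replicate 1 it was 0.21. In the fit with no filter on low counts it was 0.56, with a 95% confidence interval of 0.075 to 1.04 (adjusted p = 0.743 by edgeR). A two-sided exact permutation test gave p = 0.4, where 0.1 is the smallest value that 3 against 3 mice allow.

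Mgl2 (ENSMUSG00000040950.13, chromosome 11, 70130329 to 70137550, plus strand) encodes CD301b, a lectin for galactose-type sugars found on macrophages and dendritic cells. It had 3.02, 3.65 and 5.89 CPM in IL-4Rα+/+ mice and 4.86, 4.76 and 3.08 CPM in IL-4Rα-/- mice. The genotypes covered the same range, with a log2 fold change of 0.02 (SE 0.32, adjusted p = 0.989 by edgeR). The sign of so small a value turned when 4 of the 6 mice were left out in turn, from -0.17 without IL-4Rα+/+ replicate 1 to 0.34 without IL-4Rα+/+ replicate 3.

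Of the chemokines, Ccl22 (ENSMUSG00000031779.3, chromosome 8, 94745590 to 94751699, plus strand) was the only member with a lower mean in IL-4Rα-/- mice among those tested. CCL22 attracts regulatory and type 2 helper T cells through CCR4. The gene had 24.2, 16.9 and 11.4 CPM in IL-4Rα+/+ mice and 13.5, 5.74 and 12.9 CPM in IL-4Rα-/- mice. IL-4Rα-/- replicate 2 was the lowest and the other IL-4Rα-/- mice fell inside the IL-4Rα+/+ range. Means were 17.5 ± 6.41 and 10.7 ± 4.32 CPM (SD, n = 3 each), and the log2 fold change was -0.71 (SE 0.39, 95% confidence interval -1.64 to 0.23, adjusted p = 0.642 by edgeR). The value stayed below 0 whichever mouse was left out, between -0.94 and -0.40, and was -0.40 without IL-4Rα+/+ replicate 1 and without IL-4Rα-/- replicate 2.

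Ccl17 (ENSMUSG00000031780.2, chromosome 8, 94810453 to 94812036, plus strand), the neighbour of Ccl22 on chromosome 8 and a ligand of the same receptor, had 11, 5 and 6 counts in IL-4Rα+/+ mice and 8, 4 and 1 in IL-4Rα-/- mice. It failed the filter on low counts, and with no filter its log2 fold change was -0.79 (SE 0.75). The genotypes overlapped, so a lower level in IL-4Rα-/- mice was not shown. Ccl24 (ENSMUSG00000004814.10, chromosome 5, 135569937 to 135573049, minus strand), which encodes eotaxin-2 and attracts eosinophils through CCR3, had 2.53, 2.35 and 2.68 CPM in IL-4Rα+/+ mice and 3.75, 1.72 and 3.18 CPM in IL-4Rα-/- mice. The IL-4Rα+/+ mice lay close together and inside the range of the IL-4Rα-/- mice. Its log2 fold change was 0.19 (SE 0.32, adjusted p = 0.846 by edgeR), and it turned to -0.05 without IL-4Rα-/- replicate 1.

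Egr2 (ENSMUSG00000037868.15, chromosome 10, 67535475 to 67542188, plus strand), the zinc finger transcription factor that IL-4 induces early in macrophages, had 3.62, 4.45 and 5.93 CPM in IL-4Rα+/+ mice and 5.96, 4.27 and 4.90 CPM in IL-4Rα-/- mice. It was the steadiest of the members, with 1.65 times between its highest and lowest library. The log2 fold change was 0.11 (SE 0.24, adjusted p = 0.883 by edgeR) and was -0.04 without IL-4Rα+/+ replicate 1 and -0.03 without IL-4Rα-/- replicate 1.

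Since Chil3 and Ccl22 varied widely within each genotype, their levels are set beside the 2 monocyte classes. A Ly6C score, the mean log2 CPM of 12 genes of Ly6C high monocytes minus that of 10 genes of Ly6C low monocytes, was -1.82, -0.66 and 1.08 in IL-4Rα+/+ mice and -0.55, 1.82 and -0.26 in IL-4Rα-/- mice. The score overlapped between the genotypes. Its 12 Ly6C high genes include Csf1r, a gene of monocytes and macrophages in general. Csf1r was highest at the lowest score (3095 CPM) and lowest at the highest score (2227 CPM). Chil3 was lowest in the library with the lowest score and highest in the 2 libraries with the highest scores, IL-4Rα-/- replicate 2 and IL-4Rα+/+ replicate 3. IL-4Rα-/- replicate 3 was the exception, with less Chil3 than its place in that order. Ccl22 ran in exactly the opposite order to the score in all 6 libraries. Within each genotype alone, the 3 mice had the same opposite order for Ccl22. The summed dendritic cell markers ranked the 6 libraries in the same order as Ccl22. They ran from 2282 CPM in IL-4Rα+/+ replicate 1 to 1326 CPM in IL-4Rα-/- replicate 2. H2-Ab1, Itgax and Fscn1 were the most abundant of these markers, and single markers did not all share the order. In IL-4Rα+/+ replicate 1, Zbtb46 (18.2 CPM) and Ccr7 (63.2 CPM) were at their highest, but Flt3 (65.4 CPM) and Xcr1 (0.668 CPM) at their lowest. The part of dendritic cells or of either monocyte class in the Ccl22 level was not tested. Scores and levels come from the same 6 libraries, so this is a description without a test.

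**Figure D2:**
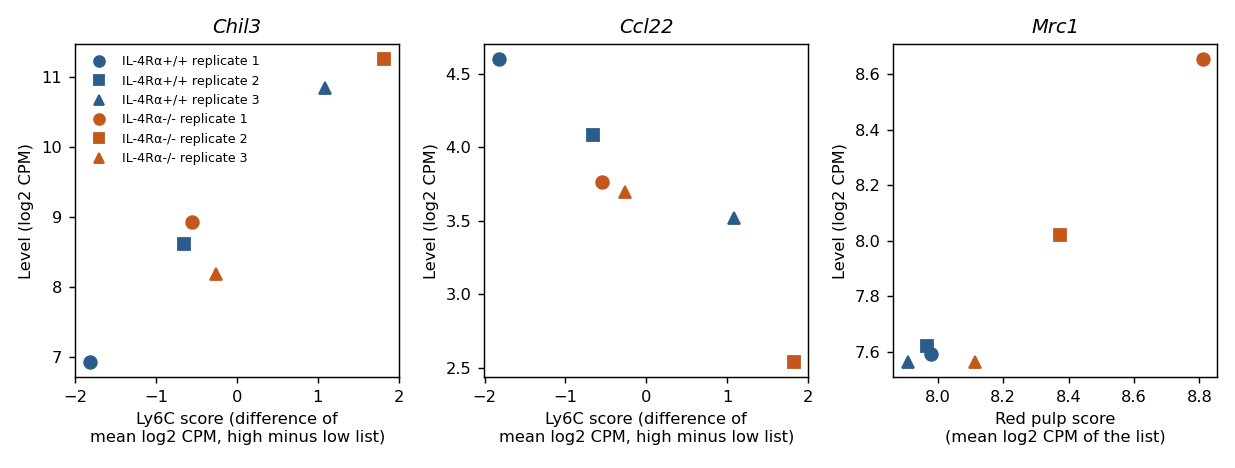
Log2 CPM of Chil3, Ccl22 and Mrc1 in each library against marker scores of the same library (log2 units), with the genotypes in separate colours. Chil3 is highest and Ccl22 lowest at the highest Ly6C score of 1.82, and Mrc1 is highest at the highest red pulp score of 8.81.

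The summed markers of Ly6C high monocytes ran from 5847 to 13453 CPM in IL-4Rα+/+ and from 8067 to 14485 CPM in IL-4Rα-/- mice. Csf1r was the most abundant of them on average. All but Csf1r (log2 fold change -0.16, SE 0.13), 11 of the 12, had a higher mean in IL-4Rα-/- mice. At an unadjusted p under 0.05, 0 of them passed, against 8.09% of all genes. The markers of Ly6C low monocytes ran from 5117 to 10799 CPM and from 3683 to 7525 CPM, and all 10 had a lower mean in IL-4Rα-/- mice, again with 0 at that threshold. In bulk samples, fewer cells of a type and less RNA per cell cannot be told apart. With the Ly6C score as a covariate, an alternative chosen after seeing the data, the log2 fold change of Chil3 turned to -0.27 (SE 0.28, adjusted p = 0.743 by edgeR). That of Ccl22 was -0.38 (SE 0.12, 95% confidence interval -0.67 to -0.08), with an adjusted p of 0.380 by edgeR. The errors of both genes were smaller than without the covariate, and neither was called. Neutrophil precursors also express Chil3. The listed genes of neutrophils and their precursors summed to 28.5 to 134 CPM in IL-4Rα+/+ and 91.6 to 471 CPM in IL-4Rα-/- mice. S100a8, S100a9 and Ngp were the most abundant of them. The highest sum was that of IL-4Rα-/- replicate 2, and the part of these cells in the Chil3 level was not tested.

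Mrc1 is also a gene of red pulp macrophages, the spleen's resident cells that clear aged erythrocytes. The 12 red pulp markers summed to 3758 to 4297 CPM in IL-4Rα+/+ and 4823 to 7558 CPM in IL-4Rα-/- mice, without overlap. Of the 12, 11 had a higher mean in IL-4Rα-/- mice and 1, Siglec1, a lower mean (log2 fold change -0.32, SE 0.23). An unadjusted p under 0.05 was reached by 7, all among the higher ones, against 8.09% of all genes. EdgeR called 0 of the 12, as of all genes, and DESeq2 0, against 0.571% of the genes it adjusted. Vcam1, an adhesion molecule of these macrophages, averaged 587 and 1000 CPM, and Spic, their defining transcription factor, 97.0 and 127 CPM. The red pulp score, the mean log2 CPM of these markers, was 7.98, 7.97 and 7.91 in IL-4Rα+/+ mice and 8.81, 8.37 and 8.11 in IL-4Rα-/- mice. The 2 libraries with the most Mrc1 were those with the highest scores, IL-4Rα-/- replicates 1 and 2. IL-4Rα-/- replicate 3 was the exception, with a score above all IL-4Rα+/+ libraries but no more Mrc1 than the lowest of them. With this score as a covariate, also chosen after seeing the data, the log2 fold change of Mrc1 turned to -0.25 (SE 0.12, 95% confidence interval -0.55 to 0.04, adjusted p = 0.981 by edgeR). Because the score itself did not overlap between the genotypes, the share of Mrc1 that follows the score and the share that follows the genotype cannot be told apart.

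**Figure D3:**
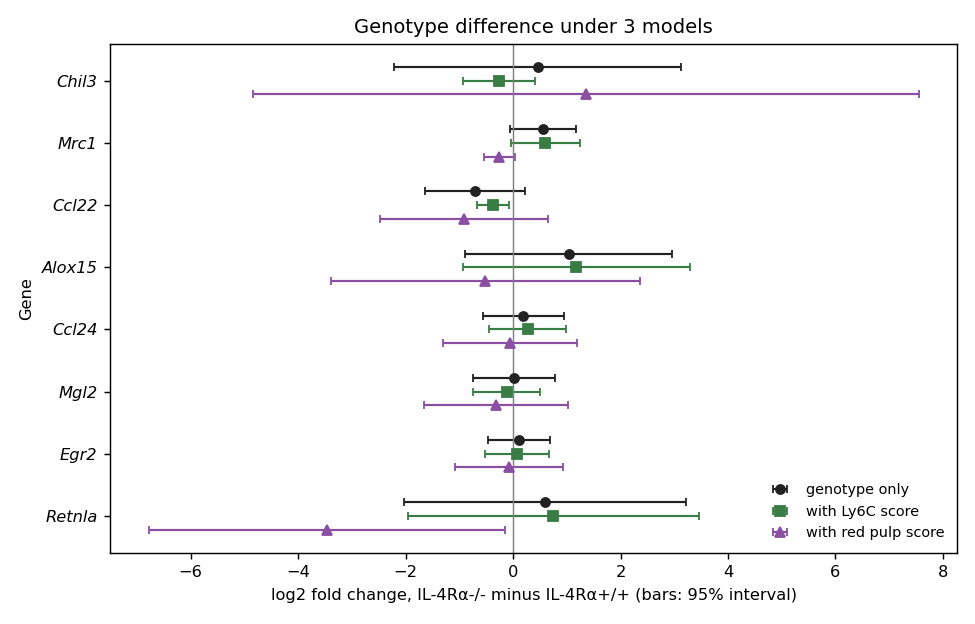
Log2 fold change of IL-4Rα-/- over IL-4Rα+/+ for the 8 members tested, with 95% confidence intervals of edgeR, for genotype alone (black), with the Ly6C score (green) and with the red pulp score (purple) as a covariate. With genotype alone each interval includes 0, from the narrow interval of Egr2 (-0.47 to 0.70) to the wide interval of Chil3 (-2.21 to 3.13). With a covariate the intervals of Ccl22 (Ly6C score, -0.67 to -0.08) and Retnla (red pulp score, -6.78 to -0.15) do not, and neither gene was called.

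The genes whose pattern over the 6 libraries was nearest to each member were listed by the root mean square difference of log2 CPM after centring each gene, as a description without a test. Nearest to Chil3 were Lamc1 (0.295), Mmp8 (0.308) and Clmn (0.345), of which Mmp8 encodes the neutrophil collagenase. Nearest to Mrc1 were Ptprm (0.0612), Mertk (0.0646) and Ctsf (0.0759), and Mertk encodes a receptor with which macrophages take up apoptotic cells. Ccl22 lay nearest to Apol10b (0.0945), Setbp1 (0.105) and Gpr155 (0.131). Ccl24 was followed by Itm2a (0.0403), Mcm8 (0.0644) and Zkscan4 (0.0973). Egr2 lay nearest to Tmem41a, Btbd3 and Lmln, at 0.0865 to 0.0895, and Mgl2 to Pter, Myrf and Gm15537, at 0.0998 to 0.106. Nearest to Alox15 were the immunoglobulin segments Igkv2-109 (0.371), Ighv2-6 (0.437) and Ighv10-1 (0.522), and nearest to Retnla Ighv2-9-1 (0.300), Igkv4-61 (0.552) and Crocc2 (0.600). Such segments come in families with highly similar sequences, and how reads were divided within a family is uncertain.

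The receptor pathway upstream of these genes was transcribed in both genotypes. Of 15 listed genes for receptor chains, kinases, STAT6, feedback regulators and the ligands, 12 were tested, 5 higher and 7 lower in IL-4Rα-/- mice, with a median log2 fold change of -0.07. Only Il4ra, 1 of the 12, passed an unadjusted p of 0.05, against 8.09% of all genes. DESeq2 called Il4ra alone, against 0.571% of the genes it adjusted. The 3 most abundant were Ptpn6, which encodes the phosphatase SHP-1, at 925 ± 74.7 CPM in IL-4Rα+/+ and 926 ± 12.4 CPM in IL-4Rα-/- mice, Stat6 at 488 ± 22.3 and 457 ± 10.3 CPM, and Jak1 at 378 ± 6.86 and 355 ± 13.7 CPM (SD, n = 3 each). Stat6 and Jak1 did not overlap between the genotypes, as for 3 of the 12 genes and 15.5% of all genes tested. Their log2 fold changes were only -0.09 each, with adjusted p values of 0.704 by edgeR. The ligand genes were close to absent, with 0 to 8 counts for Il4 and 0 to 4 counts for Il13 per library. Markers of basophils and mast cells, which are known to make IL-4, summed to 12.3 to 27.8 CPM in IL-4Rα+/+ and 38.1 to 70.3 CPM in IL-4Rα-/- mice, and 8 of the 9 had an unadjusted p under 0.05, against 8.09% of all genes, each higher in IL-4Rα-/- mice. DESeq2 called 3 of them (Cpa3, Ms4a2 and Hdc), against 0.571% of the genes it adjusted, and edgeR called 0, as of all genes. Cpa3 (28, 6 and 32 counts in IL-4Rα+/+ mice) and Fcer1a (20, 8 and 22) passed the filter only with the IL-4Rα-/- libraries. The remaining gene, Cma1, had a log2 fold change of -0.26 (SE 0.65).

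Other genes known to rise with IL-4 in mouse macrophages were examined in the same way. Of 38 listed genes 33 were tested, 14 higher and 19 lower in IL-4Rα-/- mice, with a median log2 fold change of -0.10. At an unadjusted p under 0.05, 3 of the 33 passed, a share near the background of 8.09%. Cdh1, which encodes E-cadherin, an adhesion protein that IL-4 raises in macrophages before they fuse, had 44, 38 and 40 counts in IL-4Rα+/+ mice and 104, 101 and 82 in IL-4Rα-/- mice. The genotypes did not overlap, as for 4 of the 33 genes and 15.5% of all genes tested. The log2 fold change was 1.18 (SE 0.22), with an adjusted p of 0.618 by edgeR and 0.0205 by DESeq2. Cdh1 was the only gene of the list called by DESeq2, against 0.571% of the genes it adjusted. It was higher, not lower, in mice without the receptor chain. The part of other cells in the Cdh1 level was not tested. Matk, which encodes a kinase, was 35.1 ± 3.36 and 29.2 ± 2.07 CPM (log2 fold change -0.27, SE 0.10), and Batf3, a transcription factor of dendritic cells, 31.7 ± 5.90 and 23.3 ± 2.77 CPM (-0.45, SE 0.16), with SD over 3 mice each. The 12 dendritic cell markers ran from 1467 to 2282 CPM in IL-4Rα+/+ and from 1326 to 1739 CPM in IL-4Rα-/- mice, and their part in Batf3 was not tested.

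The 3 most abundant genes of this list did not pass that threshold. Fn1, encoding fibronectin, was 2430 ± 1622 CPM in IL-4Rα+/+ and 2549 ± 771 CPM in IL-4Rα-/- mice, and it is also counted among the Ly6C high markers. Tgm2, encoding transglutaminase 2, was 349 ± 195 and 291 ± 42.4 CPM, and Klf4, a transcription factor of monocyte differentiation, 300.0 ± 46.4 and 257 ± 70.5 CPM (SD, n = 3 each).

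**Figure D4:**
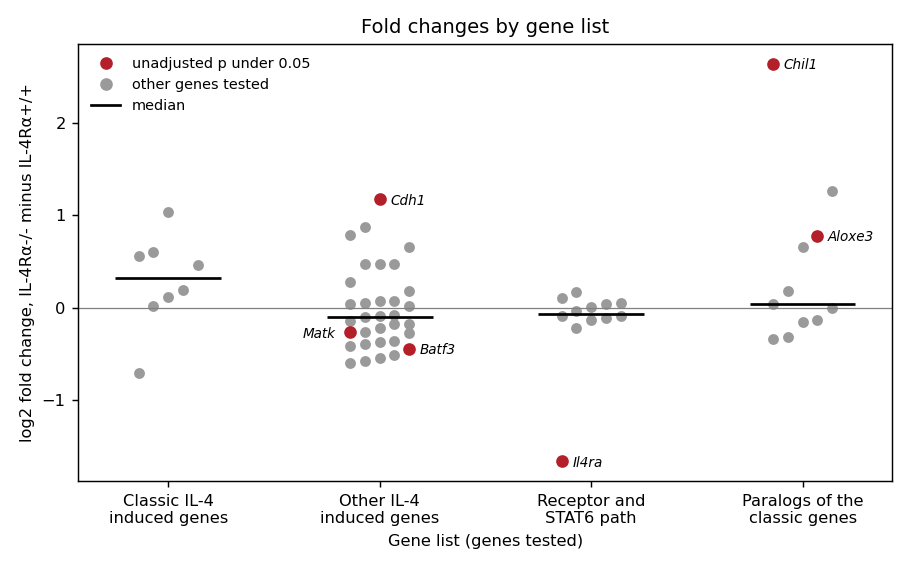
Log2 fold change of IL-4Rα-/- over IL-4Rα+/+ for each tested gene of the 10 classic genes, the other IL-4 induced genes, the receptor pathway and the relatives (paralogs) of the classic genes, with genes of an unadjusted p under 0.05 in red, the others in grey and black bars at the medians. Il4ra at -1.67, Cdh1 at 1.18 and Chil1 at 2.64 are the most distant from 0 in their lists, whose medians lie between -0.10 and 0.32, and Chil1 passed the filter only through the IL-4Rα-/- mice.

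The relatives of the classic genes show which family members prevailed in the libraries. In addition to Chil3, the other chitinase-like genes were low, with 0 to 5 counts for Chil4, 1 to 10 for Chil5, 0 in every library for Chia1 and 2 to 35 for Chil1. Chil1, which encodes the chitinase-like protein BRP-39, had 2, 3 and 6 counts in IL-4Rα+/+ mice and 18, 35 and 21 in IL-4Rα-/- mice. All IL-4Rα-/- mice were above all IL-4Rα+/+ mice, and such a gap held for 2 of the 11 relatives tested and 15.5% of all genes tested. DESeq2 called Chil1 with an adjusted p of 0.0702, against 0.571% of the genes it adjusted. With edgeR its adjusted p was 0.618 at a log2 fold change of 2.64 (SE 0.52). It passed the filter only through the IL-4Rα-/- mice, where it is higher, so this call has to be read with its few counts. Arginase 2 was more abundant than Arg1, with 16 to 220 counts of Arg2. Of the resistin-like genes, Retnlb had 0 to 1 counts and Retnlg 35 to 111.

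Among the lectins, Clec10a, the closest relative of Mgl2, had 1008 to 1846 counts, Mrc2 39 to 156, Asgr2 41 to 67 and Asgr1 0 to 1. Clec10a was thus the prevailing gene of this pair, at 47.1 ± 10.7 CPM in IL-4Rα+/+ and 53.4 ± 9.92 CPM in IL-4Rα-/- mice (SD, n = 3 each). Of the lipoxygenases, Alox5 had 443 to 1623 counts, Aloxe3 40 to 90, Alox8 5 to 22, Alox12 1 to 17, Alox12e 0 to 4 and Alox12b 0. Aloxe3, an epidermal-type lipoxygenase, was 1.60 ± 0.280 CPM in IL-4Rα+/+ and 2.75 ± 0.563 CPM in IL-4Rα-/- mice. The genotypes did not overlap, as for 15.5% of all genes tested. The log2 fold change of Aloxe3 was 0.78 (SE 0.26), with an adjusted p of 0.618 by edgeR. The early growth response genes differed widely in level, with 432 to 4412 counts for Egr1, 19 to 95 for Egr3 and 0 for Egr4. Of the chemokines related to Ccl24 and to the Ccl17 cluster, Ccl11 had 0 to 1 counts and Cx3cl1 4 to 25. In all, 11 of the 22 relatives were tested. EdgeR called 0 of them, as of all genes, and DESeq2 called Chil1 alone, against 0.571% of the genes it adjusted. Apart from Chil1, with the limit given above, only Aloxe3 had an unadjusted p under 0.05, where 8.09% of all genes did.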

How the data were processed

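Splenic monocytes of 3 mice of each genotype, IL-4Rα+/+ or IL-4Rα-/-, were sequenced as polyadenylated RNA with reads of 75 bases. The authors aligned the reads to GRCm38 with STAR 2.6.1a and deposited raw counts per gene, without normalization. The submitters' processing notes also name RSEM and DESeq2 1.22.2. The strand setting is not given in the sources used here, and 55240 of the 55421 identifiers were named from Gencode. No member shares exon bases with another gene.

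The summary lines that name no gene entered neither library sizes nor tests. Reads outside genes or ambiguous made up 10.4% to 13.1% of a library. Genes passing filterByExpr of edgeR 4.0.16 (R 4.3.3) at a minimum count of 10 were normalized by TMM and tested by the quasi-likelihood test, with no covariate, Benjamini-Hochberg adjustment over all 13849 genes and a threshold of 0.15. CPM use the same factors, and scores use log2 CPM with a prior count of 2. DESeq2 1.42.0, limma 3.58.1, other filters and normalizations, a replicate block, removal of a length trend, 2 score covariates and the omission of each mouse were alternatives. An exact permutation test (two-sided, 20 labelings) was applied to single values. The steps were tested on simulated data.

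The members and lists were chosen with earlier results of these data known. Named were all members, Il4ra, each relative, the genes of 2 pathway lists with an unadjusted p under 0.05 or among the 3 most abundant, and 3 nearest genes per member. Mice were taken as independent samples. The p-values of the fits set the genotype difference against the spread between mice, with an error estimate that also draws on the other genes.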

Additional observations from a re-analysis of the deposited data

How the results depend on the processing

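The count of members called was 0 under all 16 alternatives, and over them the adjusted p of single members ranged from 0.380 to 0.997. Only DESeq2 called any gene at all (80), so under the others a count of 0 members was given in advance. Of 127 alternative values of single members, 107 kept their direction and 20 turned. With DESeq2, 1 gene of the other IL-4 induced genes (Cdh1) and 1 gene of the receptor pathway (Il4ra) were called, against 0 with edgeR. Retnla was -0.17 on the log2 scale with limma voom, and Mgl2 was -0.045 after removal of the length trend. With the Ly6C score as a covariate, Chil3 was -0.27 and Mgl2 -0.12. With the red pulp score as a covariate, Retnla was -3.47, Mrc1 -0.25, Ccl24 -0.054, Egr2 -0.070, Alox15 -0.52 and Mgl2 -0.32, and the median of the members was -0.29. Both covariates were chosen after seeing the data and leave few degrees of freedom, and for these turns the cause was not tested.

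Leaving out each mouse in turn gave a median of the members between -0.04 and 0.49. The ranges were -1.39 to 1.15 for Retnla, -1.003 to 2.06 for Chil3, 0.21 to 0.78 for Mrc1, -0.046 to 0.46 for Ccl24, -0.94 to -0.40 for Ccl22, -0.040 to 0.32 for Egr2, 0.47 to 2.38 for Alox15 and -0.17 to 0.34 for Mgl2. In these fits 0 members, 0 of the other IL-4 induced genes and 0 of the receptor pathway were called. The same fits called 0 of all genes tested, so these counts say nothing particular about the lists. With the replicate block, 0 members were called and 765 genes had an unadjusted p under 0.05, against 1120 without it. The median of the members was then 0.16. Same-numbered mice correlated at 0.185, -0.271 and -0.296 in their deviations from the genotype means, so the numbers were not taken as pairs. With or without the block, edgeR called 0 of all genes tested. Depth limits Arg1, Ccl17 and Retnla, whose counts were 0 to 30 per library.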
